A study of Mus musculus with 20 samples.

Results

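Genes of muscle atrophy, autophagy and the lysosome were followed in the left ventricle of mice given doxorubicin (DOXO), folic acid (FA), both or neither. A list of 42 genes was searched for among the transcript clusters of the array, each cluster being the summary of a set of probes assigned to 1 transcribed region. A cluster was taken where the array annotation gave it exactly 1 gene symbol equal to a listed gene, and where a gene had several such clusters the one with the highest mean signal was used. In this way 41 of the 42 genes were found, out of 19937 genes with a cluster of their own and 34760 clusters in all. The gene not found was Optn.

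All 20 mice were male C57BL/6 animals, 2 months old by the sample labels, with no transgene named. The 4 sham mice received saline and a placebo diet. The 4 FA-sham mice received saline and FA at 10 mg per day, and the 6 DOXO mice received 1 intraperitoneal injection of DOXO at 20 mg/kg on the placebo diet. The 6 FA-DOXO mice received the same injection and the same FA, which began 7 days before the injection and went on to the end of the experiment at day 10. Each mouse gave 1 Affymetrix Mouse Gene 1.0 ST array of left ventricular RNA, and signals are given on the log2 scale as deposited.

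Muscle cells remove protein along a pair of routes. In the first, ubiquitin ligases such as Trim63 and Fbxo32 tag sarcomere and other proteins for the proteasome, and FoxO transcription factors switch these ligase genes on when growth signalling falls. In the second, autophagy, a kinase complex and a lipid kinase complex start a membrane sac, conjugating enzymes fix proteins of the Atg8 family to it, receptors such as Sqstm1 bring the cargo, and the sac fuses with the lysosome, where cathepsins digest it. DOXO is an anthracycline with well known toxicity to the heart, in which both routes have been much studied.

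The promoter sequences of 5 of the genes are shown because they carry, or lack, the letters through which the factors of these routes are known to act. FoxO factors bind TGTTTAC, and Tfeb and Tfe3, the regulators of lysosome genes, bind elements with the core CACGTG, which several other factors also bind. The sequences are the 250 bases before the annotated start, 5′ to 3′ on the strand of the gene, from RefSeq on GRCm38.p6, with every match to a motif in capitals. Of the 42 listed genes, 34 had a RefSeq promoter entry, Optn among them. Others, including Fbxo32, Eif4ebp1, Map1lc3a and Foxo4, had no entry, so their promoters were not searched. Trim63 lies at chr4:134314870-134315119 (plus strand) and was the only one of the 34 genes with an entry to hold TGTTTAC. Ctsd, encoding cathepsin D, lies at chr7:142387828-142388077 (minus strand). Lamp1, encoding a lysosome membrane glycoprotein, lies at chr8:13158911-13159160 (plus strand) and Mcoln1, encoding a lysosomal calcium channel, at chr8:3500269-3500518 (plus strand). Sqstm1, at chr11:50210821-50211070 (minus strand), held neither motif and is shown because its signal differed most with DOXO on average over both diets.
Trim63: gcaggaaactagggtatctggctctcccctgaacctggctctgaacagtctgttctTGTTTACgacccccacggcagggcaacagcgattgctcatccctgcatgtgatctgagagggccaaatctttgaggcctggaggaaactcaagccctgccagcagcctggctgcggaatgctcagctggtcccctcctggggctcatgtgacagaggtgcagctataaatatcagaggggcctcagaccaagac
Ctsd: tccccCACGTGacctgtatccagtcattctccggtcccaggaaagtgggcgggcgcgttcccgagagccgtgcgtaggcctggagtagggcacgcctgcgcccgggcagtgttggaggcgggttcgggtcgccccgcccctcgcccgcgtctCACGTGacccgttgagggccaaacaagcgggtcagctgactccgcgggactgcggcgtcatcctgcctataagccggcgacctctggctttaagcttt
Lamp1: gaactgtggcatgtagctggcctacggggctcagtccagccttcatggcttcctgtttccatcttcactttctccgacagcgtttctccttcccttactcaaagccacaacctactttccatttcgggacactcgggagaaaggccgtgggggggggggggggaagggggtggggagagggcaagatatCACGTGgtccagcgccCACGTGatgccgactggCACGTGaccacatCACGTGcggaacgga
Mcoln1: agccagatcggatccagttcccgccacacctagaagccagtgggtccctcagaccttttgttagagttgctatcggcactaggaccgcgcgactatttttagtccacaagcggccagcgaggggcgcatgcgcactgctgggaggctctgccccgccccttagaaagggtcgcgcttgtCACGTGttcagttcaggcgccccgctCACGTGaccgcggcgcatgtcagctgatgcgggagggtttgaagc
Sqstm1: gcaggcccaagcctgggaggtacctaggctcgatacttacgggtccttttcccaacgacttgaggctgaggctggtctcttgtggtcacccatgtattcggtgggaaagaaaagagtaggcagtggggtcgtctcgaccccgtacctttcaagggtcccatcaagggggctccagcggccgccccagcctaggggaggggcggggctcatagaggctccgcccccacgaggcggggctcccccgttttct
Both strands were searched over 300 bases, from 250 before to 50 after each start, and the 2 motifs do not overlap each other. CACGTG was present in 7 of the 34 genes (20.6%), namely Klf15, Atg14, Atg5, Atg7, Lamp1, Ctsd and Mcoln1, and in 8.09% of the 27025 genes with an entry. TGTTTAC was present in 1 of 34 (2.94%) and in 4.05% of the 27025. Lamp1 had 4 matches to CACGTG just before its start, Klf15, which is no lysosome gene, had 3, and Ctsd and Mcoln1 had 2 each. These matches describe the letters of the windows and were not tied to binding.

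The tissue carried the markers of heart muscle. The mean log2 signal of 8 cardiomyocyte markers lay between 8.22 and 13.10 on the 20 arrays, against array medians of 6.23 to 6.66, and that of 9 markers of fast skeletal muscle between 5.84 and 6.74. The arrays differed in the spread of their signals. The standard deviation of the log2 signals over all clusters of an array, here called the array SD, ran from 0.863 to 1.50. It was above 1.1 on 8 arrays, called wide, and the other 12 are called narrow. The wide arrays came from 3 of the 4 sham mice and 1 of the 4 FA-sham mice, with 2 of the 6 in DOXO and 2 of the 6 in FA-DOXO. Its mean was 1.27 (SD 0.25) over the sham arrays, 0.957 (SD 0.12) over those of FA-sham, 1.13 (SD 0.26) with DOXO and 1.04 (SD 0.19) with both agents.

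The 41 genes followed this spread more than most clusters did. The slope of the log2 signal on the array SD within groups was above 3 for 19 of the 41 genes (46.3%), against 10.0% of all clusters, and its median was 2.54 against −0.53. It was highest for Ctsd at 8.63, Sqstm1 at 7.89, Pink1 at 7.62 and Lamp2 at 7.18, and below 0 only for Mstn, the muscle growth inhibitor myostatin, at −1.61. Each comparison of groups was therefore fitted in limma over all clusters with the array SD as a covariate, and each is also given without it. The spread of the arrays and the content of the tissue cannot be told apart in these values.

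**Figure D1:**
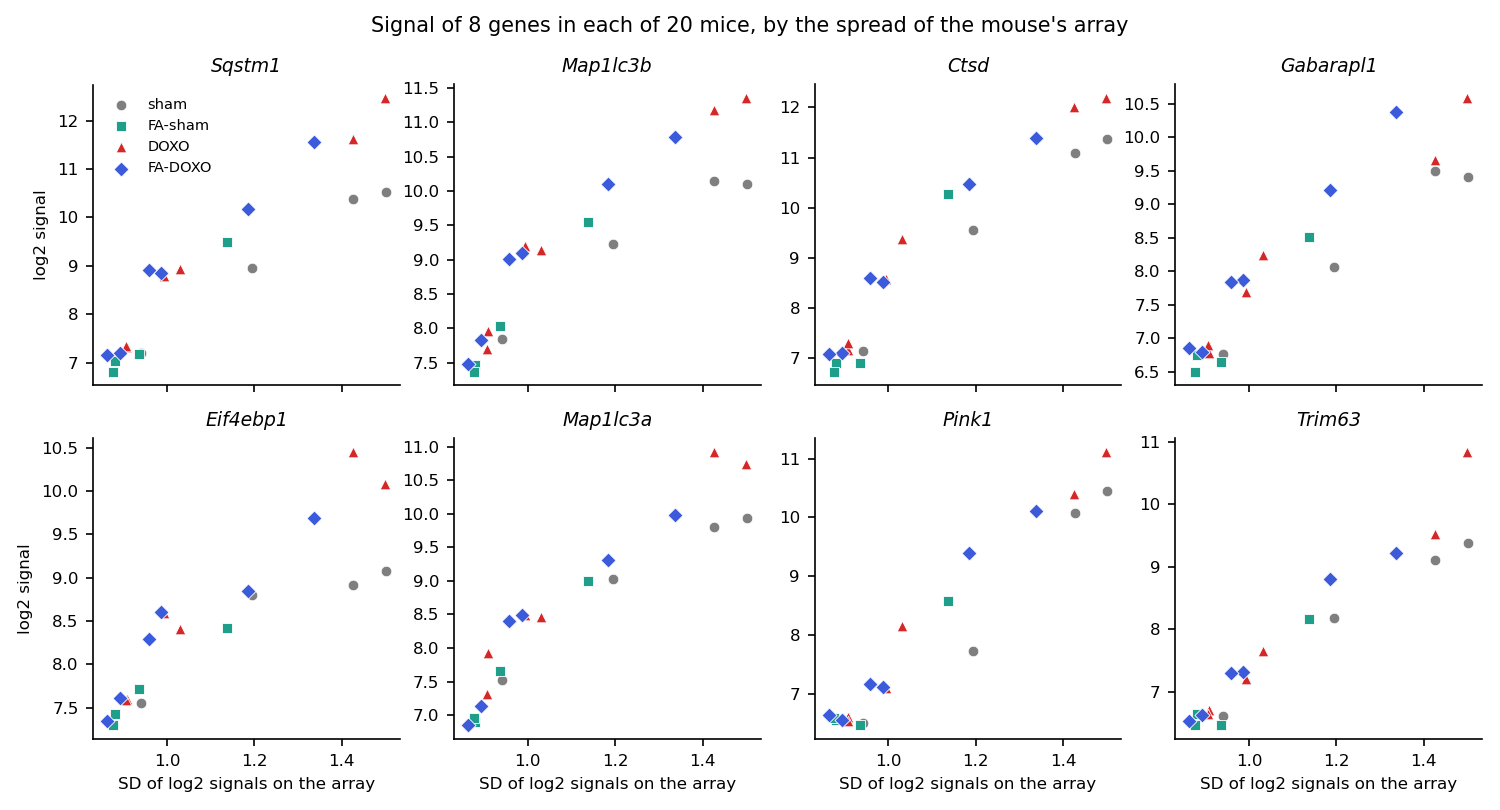
Log2 signal of 8 genes in each of the 20 mice (vertical axis) against the array SD (horizontal axis), 1 point per mouse, with sham as grey circles, FA-sham as green squares, DOXO as red triangles and FA-DOXO as blue diamonds. All 8 genes rise with the array SD, and Sqstm1 reaches 12.46 in DOXO and 10.52 in sham on the arrays of the largest spread.

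With the array SD in the fit, 3 of the 5 Atg8 family genes were higher with DOXO, as were the cargo receptor gene Sqstm1, the mitophagy kinase gene Pink1, 1 ligase, 1 translation regulator and 1 lysosomal protease, while the genes that start the autophagic membrane did not pass. Averaged over both diets, 8 of 41 genes were higher with DOXO at an unadjusted p under 0.01, the threshold of the study's methods, where 2.01% of all clusters were, and 0 were lower, where 0.814% of all clusters were. These were Sqstm1, Map1lc3b, Ctsd, Gabarapl1, Eif4ebp1, Map1lc3a, Pink1 and Trim63, with log2 differences of 0.41 to 0.98. After Benjamini-Hochberg adjustment over all clusters only Sqstm1 passed 0.05 (adjusted p = 0.0273), where 0.19% of clusters were called higher. The median log2 difference of the 41 genes was 0.11, against 0.01 over all clusters. Without the covariate 0 of 41 passed at either threshold, where only 0.316% of all clusters were higher at an unadjusted 0.01. Of the 41, 0 had an unadjusted limma p under 0.05, as 691 of all 34760 clusters did, and the median was 0.04.

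On the placebo diet alone, DOXO against sham, 7 of 41 genes were higher, where 3.14% of all clusters were, and 0 were lower, where 1% were. The 7 were the same 8 genes less Ctsd, and none passed the adjusted threshold, where 0.135% of clusters did. The smallest adjusted p was that of Sqstm1 at 0.0552. The median log2 difference was 0.19 with the covariate and −0.13 without it, so the direction of the list as a whole rested on the covariate. On the FA diet, FA-DOXO against FA-sham, 2 of 41 genes were higher, Sqstm1 and Gabarapl1, where 0.604% of all clusters were, and 0 were lower. These 3 comparisons share their mice with each other, so their counts are not independent. A bulk signal cannot tell fewer cells of a type from less RNA per cell.

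**Figure D2:**
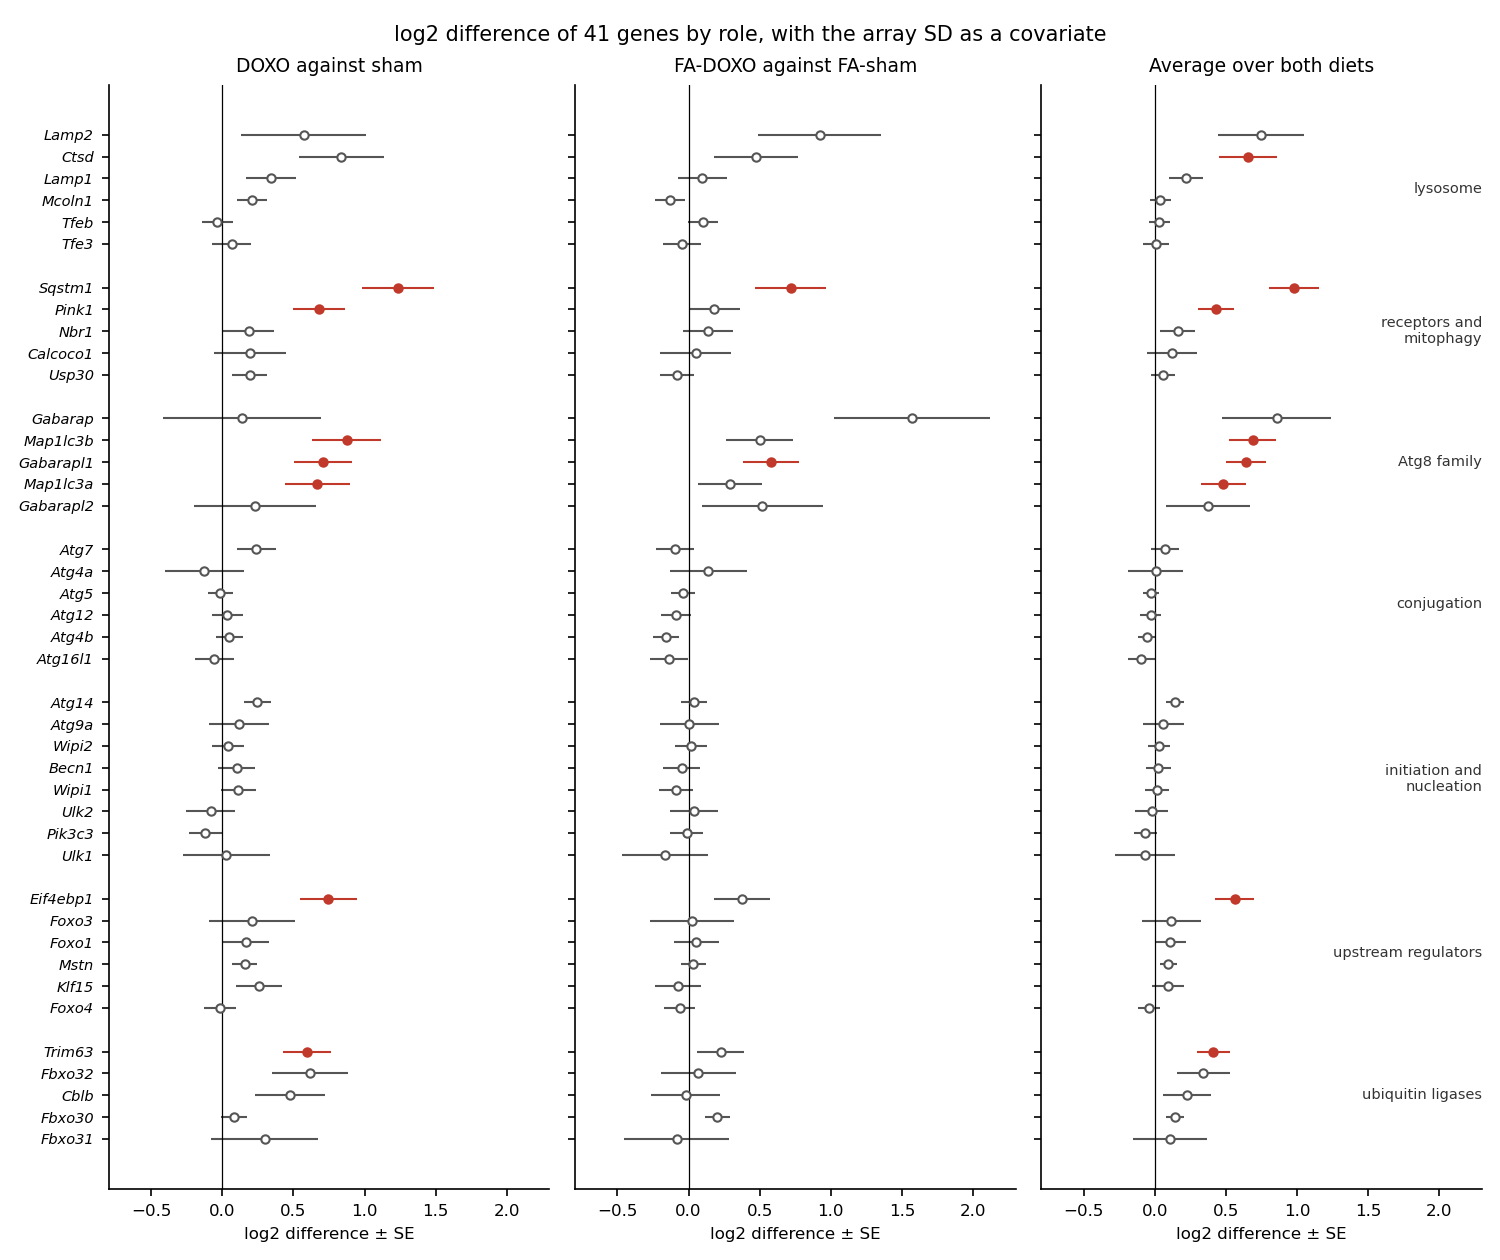
Log2 difference (horizontal axis) with its standard error (SE) of each of the 41 genes, by role, for DOXO against sham (left), FA-DOXO against FA-sham (middle) and the average of both (right), all with the array SD as a covariate. Filled red points passed an unadjusted p of 0.01, namely 7 genes on the left, 2 in the middle and 8 on the right, and none lies below 0.

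Sqstm1 encodes p62, the receptor that binds ubiquitin-tagged cargo to the autophagic membrane, and showed the largest averaged difference of the 41 genes. Its log2 signals were 8.96, 10.52, 10.39 and 7.20 in the sham mice and 7.03, 7.17, 6.81 and 9.48 in the FA-sham mice. They ran from 7.32 over a median of 8.86 to 12.46 in DOXO and from 7.16 over 8.88 to 11.55 in FA-DOXO. The groups overlapped as deposited, and the 2 highest DOXO values, which were on wide arrays, lay above every sham value. With the covariate Sqstm1 was 1.24 ± 0.25 (log2, SE) higher in DOXO than in sham, a fold of 2.35, and 0.72 ± 0.25 higher in FA-DOXO than in FA-sham. Averaged, Sqstm1 was 0.98 ± 0.17 higher, a fold of 1.97 (limma, unadjusted p = 2.58e-05, adjusted p = 0.0273). Without the covariate it was 0.75 ± 0.75.

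Pink1 encodes the kinase that marks damaged mitochondria for removal. Its log2 signals were 7.72, 10.45, 10.08 and 6.50 in sham and 6.55, 6.46, 6.58 and 8.58 in FA-sham. In DOXO they ran from 6.54 over a median of 7.62 to 11.11, and in FA-DOXO from 6.55 over 7.14 to 10.11. The groups overlapped almost throughout, with the high values of every group on its wide arrays. Pink1 was 0.68 ± 0.18 (log2, SE) higher in DOXO than in sham with the covariate and 0.37 lower without it, at −0.37 ± 1.01. Averaged over diets, Pink1 was 0.43 ± 0.13 higher (limma, adjusted p = 0.231). The other receptors and mitophagy genes did not pass: the averaged log2 difference was 0.16 ± 0.12 for Nbr1, a second receptor of tagged cargo, 0.12 ± 0.17 for Calcoco1 and 0.06 ± 0.08 for Usp30, a deubiquitinase that opposes mitophagy.

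The Atg8 family holds the small proteins, LC3 and GABARAP, that are fixed to the autophagic membrane, and 3 of its 5 genes rose. Map1lc3b, encoding LC3B, was at log2 signals of 9.22, 10.10, 10.15 and 7.85 in sham and 7.46, 8.03, 7.37 and 9.55 in FA-sham. It ran from 7.70 over a median of 9.17 to 11.35 in DOXO and from 7.48 over 9.05 to 10.79 in FA-DOXO. The 2 highest DOXO values lay above every sham value and the lowest lay below every sham value, so the groups overlapped. With the covariate the log2 difference of Map1lc3b was 0.88 ± 0.24 (SE) for DOXO against sham and 0.69 ± 0.17 on average (limma, adjusted p = 0.127), and without it 0.09 ± 0.78 and 0.52 ± 0.55. A second cluster that the annotation gives to Map1lc3b, at a lower mean signal, differed by 0.72 on average.

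Gabarapl1 was at log2 signals of 8.07, 9.41, 9.50 and 6.77 in sham and 6.75, 6.64, 6.50 and 8.52 in FA-sham. In DOXO it ran from 6.78 over a median of 7.97 to 10.59, and in FA-DOXO from 6.80 over 7.86 to 10.38. The groups overlapped, and all 4 of them reached from near the array medians to far above them. The log2 difference of Gabarapl1 was 0.71 ± 0.20 (SE) for DOXO against sham, 0.58 ± 0.20 for FA-DOXO against FA-sham and 0.64 ± 0.14 on average (limma, adjusted p = 0.0755). Without the covariate the DOXO against sham value turned to −0.13 ± 0.81.

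Map1lc3a, encoding LC3A, was at log2 signals of 9.02, 9.94, 9.80 and 7.52 in sham and 6.90, 7.66, 6.96 and 9.00 in FA-sham. It ran from 7.31 over a median of 8.48 to 10.92 in DOXO and from 6.85 over 8.45 to 9.97 in FA-DOXO, so the groups overlapped. The 2 highest DOXO values lay above every sham value and the lowest below every sham value, and the lowest FA-DOXO value lay below every FA-sham value. The log2 difference was 0.67 ± 0.23 (SE) for DOXO against sham with the covariate and −0.09 ± 0.75 without it, and 0.48 ± 0.16 on average (limma, adjusted p = 0.319). Gabarap, with the largest SE of the family, did not pass. Its averaged log2 difference was 0.86 ± 0.38, made up of 0.14 ± 0.56 for DOXO against sham and 1.57 ± 0.55 for FA-DOXO against FA-sham, with FA-sham signals of 7.32, 9.90, 7.85 and 11.66. Gabarapl2 differed by 0.37 ± 0.30 on average, and a second cluster of that gene with a mean signal of 5.75 by 0.08.

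In the lysosome, Ctsd, encoding the protease cathepsin D, was higher with DOXO on average. Its log2 signals were 9.55, 11.38, 11.10 and 7.14 in sham, and 6.90, 6.91, 6.73 and 10.27 in FA-sham. They ran from 7.16 over a median of 8.98 to 12.18 in DOXO and from 7.09 over 8.56 to 11.39 in FA-DOXO. The low values of every group came from narrow arrays, and the groups overlapped. Averaged over diets it was 0.65 ± 0.21 higher on the log2 scale (SE; limma, adjusted p = 0.284), and the difference of DOXO against sham, 0.84 ± 0.30, did not pass at an unadjusted limma p of 0.012. Lamp2, a lysosome membrane protein, was 0.75 ± 0.30 higher on average and Lamp1 0.22 ± 0.12, and neither passed. The remaining lysosome genes, Mcoln1 and the regulators Tfeb and Tfe3, had averaged log2 differences of 0.01 to 0.04. The genes that encode these regulators thus lay near 0 with SE of 0.07 and 0.09, and signals of mRNA do not show where the proteins are in the cell.

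Of the 5 ubiquitin ligases 1 rose. Trim63, encoding MuRF1, which tags sarcomere proteins, was at log2 signals of 8.18, 9.38, 9.10 and 6.62 in sham and 6.64, 6.46, 6.47 and 8.17 in FA-sham. It ran from 6.65 over a median of 7.43 to 10.84 in DOXO and from 6.53 over 7.31 to 9.23 in FA-DOXO, and the groups overlapped. The log2 difference was 0.59 ± 0.17 (SE) for DOXO against sham and 0.41 ± 0.12 on average (limma, adjusted p = 0.207), and without the covariate −0.22 ± 0.79 and 0.24 ± 0.56. Fbxo32, encoding atrogin-1, the other classic atrophy ligase, did not pass, at 0.34 ± 0.18 on average. Its DOXO signals had a median of 7.08 and a highest value of 10.44, which came from the mouse that was also highest for Trim63. Cblb differed by 0.23 ± 0.17, Fbxo30 by 0.14 ± 0.06 and Fbxo31 by 0.11 ± 0.26. For Fbxo31 a second cluster, at a lower mean signal and outside the count of 5, differed by 0.39 on average, which did not pass, and by 0.70 in DOXO against sham, which did (unadjusted limma p of 0.0073).

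Of the 6 upstream regulators, Eif4ebp1 alone passed. It encodes 4E-BP1, which holds back cap-dependent translation when growth signalling is low and whose gene is a known FoxO target. Its log2 signals were 8.80, 9.07, 8.91 and 7.55 in sham and 7.42, 7.71, 7.29 and 8.42 in FA-sham. They ran from 7.59 over a median of 8.50 to 10.45 in DOXO and from 7.35 over 8.45 to 9.69 in FA-DOXO. The 2 highest DOXO mice stood above every sham mouse, and the other 4 overlapped with them. The log2 difference was 0.75 ± 0.20 (SE) for DOXO against sham and 0.56 ± 0.14 on average (limma, adjusted p = 0.137), and without the covariate 0.20 ± 0.55 and 0.45 ± 0.39. The FoxO genes themselves differed by 0.11 ± 0.11 for Foxo1, 0.12 ± 0.21 for Foxo3 and −0.04 ± 0.08 for Foxo4. Klf15, a glucocorticoid-induced factor, and Mstn both differed by 0.09.

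The genes that build the autophagic membrane gave no call. None of the 8 genes of initiation and nucleation, among them Ulk1 and Ulk2 of the starting kinase complex and Becn1 and Pik3c3 of the lipid kinase complex, passed in limma on average, with log2 differences of −0.07 to 0.14. Of these only Atg14, a subunit of the lipid kinase complex, had an unadjusted p under 0.05. None of the 6 conjugation genes passed, with log2 differences of −0.10 to 0.07, and 0 of them had an unadjusted limma p under 0.05. Atg5, Atg7 and Atg12, which form or charge the conjugating machinery, lay at −0.03 ± 0.06, 0.07 ± 0.10 and −0.03 ± 0.07. The mean signals of these genes ran from 6.31 to 7.80, against array medians of 6.23 to 6.66. Most had slopes on the array SD below 3, the exceptions being Ulk2 at 3.14, Atg4a at 4.21 and Wipi1 at 4.67.

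All 8 genes that rose on average had slopes on the array SD above 3. Clusters with such slopes were called more often in general: 7.06% of the 3485 of them were higher on average and 8.01% in DOXO against sham. Among the 19 of the 41 genes with such slopes, 8 (42.1%) were higher on average and 7 (36.8%) in DOXO against sham. Their median log2 difference was 0.41 on average, against 0.09 for all clusters with such slopes. Among the 21 genes with slopes of 0 to 3, and for Mstn, none was called on average.

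**Figure D3:**
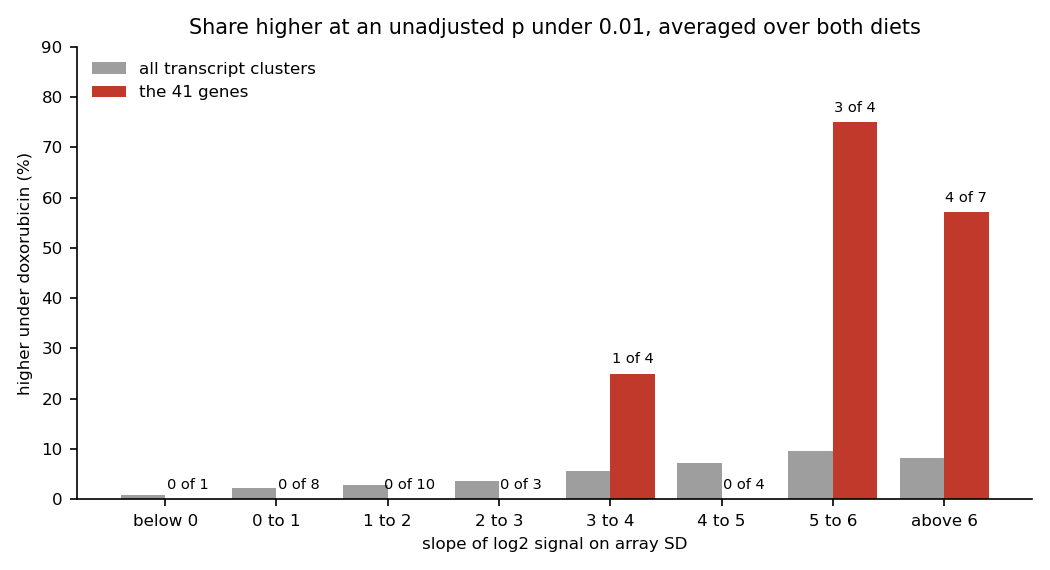
Share of clusters (vertical axis, percent) called higher with DOXO on average at an unadjusted p under 0.01, by the slope of their log2 signal on the array SD (horizontal axis), for all clusters in grey and for the 41 genes in red, with counts of genes above the bars. All 8 calls among the genes fall at slopes above 3, where 5.59% to 9.49% of all clusters are called.

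As a further view that uses no covariate, control mice were set beside the DOXO-treated mouse of the same diet whose array SD was nearest, where this was within 0.05. This gave 7 pairs and left out sham replicate 1, whose array SD was 1.19. The treated mouse was higher in 7 of 7 pairs for Sqstm1, Map1lc3b, Gabarapl1, Eif4ebp1, Pink1, Ctsd and Lamp2. These are 17.1% of the 41 genes, where 1.24% of all clusters and 4.1% of clusters with slopes above 3 were higher in every pair. Trim63 and Map1lc3a were higher in 6 of 7 pairs and Fbxo32 in 4. The differences were uneven. For Sqstm1, the sham mouse with an array SD of 1.50 was at 10.52 and its DOXO partner at 12.46, and the sham mouse with an array SD of 1.43 was at 10.39 and its partner at 11.61. In the narrow pair of sham and DOXO the values were 7.20 and 7.32. For Pink1 the differences ran from 0.01 to 0.81 with a median of 0.32. Differences in array SD left within the pairs were not corrected for, so small differences in signal cannot be told apart from them. For FA-sham replicate 4 and its partner the array SD was 1.14 and 1.18. Ctsd, with a slope of 8.63, was 0.20 higher in that partner. In other pairs the treated array was the narrower one, as for sham replicate 4 at 0.941 and its partner at 0.909. This view was added once the array SD of each mouse was known.

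**Figure D4:**
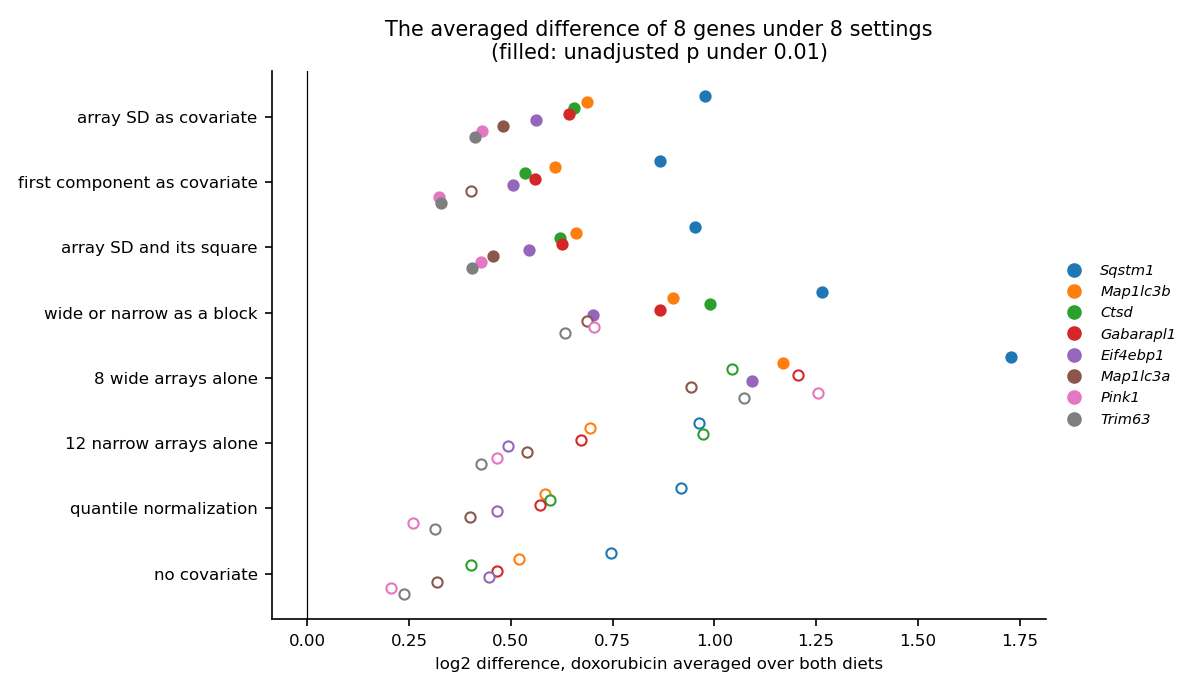
Averaged log2 difference with DOXO (horizontal axis) of the 8 genes, which were picked on these same arrays. The vertical axis gives 8 ways of treating the spread of the arrays. Filled points had an unadjusted p under 0.01. All values lie above 0, from 0.21 for Pink1 without a covariate to 1.73 for Sqstm1 on the wide arrays alone, and none is filled on the narrow arrays alone, after quantile normalization or without a covariate.

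FA was compared in both settings. In FA-DOXO against DOXO 1 of 41 genes passed, where 0.837% of all clusters were called higher. This was Fbxo30, encoding the ligase MUSA1, at log2 signals of 6.94 over a median of 7.22 to 7.94 in DOXO and of 7.01 over 7.32 to 8.29 in FA-DOXO. The sham values of Fbxo30 were 7.37, 8.00, 7.99 and 6.85, the FA-sham values 7.00, 7.05, 7.09 and 7.42, and all 4 groups overlapped. Fbxo30 was 0.30 ± 0.08 higher on the log2 scale (SE; limma, adjusted p = 0.839) with the covariate and 0.12 ± 0.24 without it. In FA-DOXO against DOXO 95 of all 34760 clusters were called lower, and none of the 8 genes that rose with DOXO on average was. With so few clusters called, 0 of 8 says little about these genes. Their log2 differences in FA-DOXO against DOXO were −0.12 to 0.39 with the covariate and −0.61 to −0.15 without it.

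In FA-sham against sham 1 of 41 genes passed, Pink1, where 1.65% of all clusters were called higher. It was 0.70 ± 0.22 higher on the log2 scale (SE; limma, adjusted p = 0.516) with the covariate and turned to −1.65 ± 1.11 without it. The 2 groups differed most in array SD, with 3 of 4 sham arrays wide and 3 of 4 FA-sham arrays narrow. Without the covariate 1 gene passed in the other direction, Gabarap, at −2.95 ± 0.93 (log2, SE), where 192 of all 34760 clusters were lower. With the covariate Gabarap was at −1.40 ± 0.66. The interaction, which asks whether DOXO acted differently on the 2 diets, was called for 0 of 41 genes in limma, where 1.78% of all clusters were called in either direction, and for 1 at an unadjusted limma p under 0.05. That gene was Mcoln1, at −0.34 (log2). For Sqstm1 the interaction was −0.52 ± 0.36 with the covariate and 1.20 ± 1.50 without it.

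Further genes of the same pathways, from lists chosen with earlier results of these data known, were read in the same fit. Over all clusters, 2.01% were higher on average, and 7.06% of those with slopes above 3, as most proteasome subunits had. Of 31 proteasome subunits 10 were higher with DOXO on average and 0 lower, with a median log2 difference of 0.25. Among these 31, 13 were higher in DOXO than in sham, against 3.14% of all clusters and 8.01% of those with slopes above 3. In FA-DOXO against FA-sham 0 were higher, where 0.604% of all clusters were, and 2 had an unadjusted limma p under 0.05. In FA-sham against sham 6 were higher, against 1.65% of all clusters and 4.76% of those with slopes above 3. Psmd4, a subunit that receives ubiquitin chains, was at 0.61 ± 0.12 (SE; limma, adjusted p = 0.04), Psmd13 at 0.40 ± 0.09 and Psmd6 at 0.23 ± 0.05. Averaged without the covariate, none of the 31 passed in limma, where 0.316% of all clusters were higher. Of the 31, 0 had an unadjusted p under 0.05, and the median was 0.12. Of 15 subunits of the V-ATPase, the pump that acidifies the lysosome, 2 were higher on average, Atp6v1h at 0.24 ± 0.05 and Atp6v0d1 at 0.20 ± 0.06. In DOXO against sham 4 of the 15 were higher, against the same 3.14% of all clusters. In FA-sham against sham 3 were, against 1.65%, and in FA-DOXO against FA-sham 0, against 0.604%. The average of Atp6v0d1 did not stand for both diets alike. It was 0.49 ± 0.09 higher in DOXO than in sham and 0.64 ± 0.11 higher in FA-sham than in sham. Its interaction was −0.59 ± 0.13 with the covariate and 0.18 without it. Averaged without the covariate, none of the 15 passed in limma, where 0.316% of all clusters were higher, and 0 had an unadjusted p under 0.05.

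Of 15 further cargo and mitophagy receptors 3 were higher on average, against the same 2.01% of all clusters, led by Bnip3, a mitophagy receptor of the outer mitochondrial membrane, at 1.1 ± 0.23 (log2, SE; limma, adjusted p = 0.0549), and Retreg1, a receptor for endoplasmic reticulum, at 0.82 ± 0.20. The other was Tax1bp1 at 0.20 ± 0.07. Without the covariate none of the 15 passed in limma, where 0.316% of all clusters were higher on average. Of the 15, 0 had an unadjusted p under 0.05, and Bnip3 was at 0.91. Of 27 further lysosomal genes 2 were higher, Cd63, encoding a tetraspanin of late endosomes, at 1.01 ± 0.20 (adjusted p = 0.0451) and Scarb2 at 0.24 ± 0.07. None of these 27 passed in limma without the covariate, where Cd63 was at 0.85 and 0 had an unadjusted p under 0.05. Of 27 further atrophy genes and FoxO or glucocorticoid targets 4 were higher. Among them Trim54, a ligase of the MuRF family, was at 0.53 ± 0.12, Ddit4, an inhibitor of mTORC1 signalling, at 0.48 ± 0.12 and Pdk4, which restrains the use of glucose, at 1.27 ± 0.38. Pdk4 was called in FA-DOXO against FA-sham, at 1.83 ± 0.54, where 0.604% of all clusters were higher. It was not called in DOXO against sham. Trim54 was 0.90 ± 0.17 higher in DOXO than in sham and 0.67 ± 0.21 higher in FA-sham than in sham. Its interaction was −0.74 ± 0.25 with the covariate and 0.05 without it. None of this list passed in limma without the covariate, where 2 had an unadjusted p under 0.05. Of 24 further genes of the autophagy machinery 0 were called on average in limma, with a median of −0.01 and 5 at an unadjusted p under 0.05. In DOXO against sham that list gave 1 gene in each direction, where 3.14% of all clusters were higher and 1% lower. These were Wdr45 at 0.41 ± 0.14 and Atg4c, a protease that processes Atg8 proteins, at −0.33 ± 0.07. Wdr45 turned to −0.15 without the covariate, and Atg4c was at −0.38. In FA-DOXO against DOXO 2 of these 24 genes were higher, where 0.837% of all clusters were. Rb1cc1 was at 0.36 ± 0.09 and Atg4c at 0.24 ± 0.06, and without the covariate they were at 0.05 and 0.21. The interaction of Atg4c was 0.39 ± 0.10 with the covariate and 0.47 without it, past an unadjusted limma p of 0.01 both times. Of all 34760 clusters, 128 with the covariate and 72 without it were called in that direction.

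**Figure D5:**
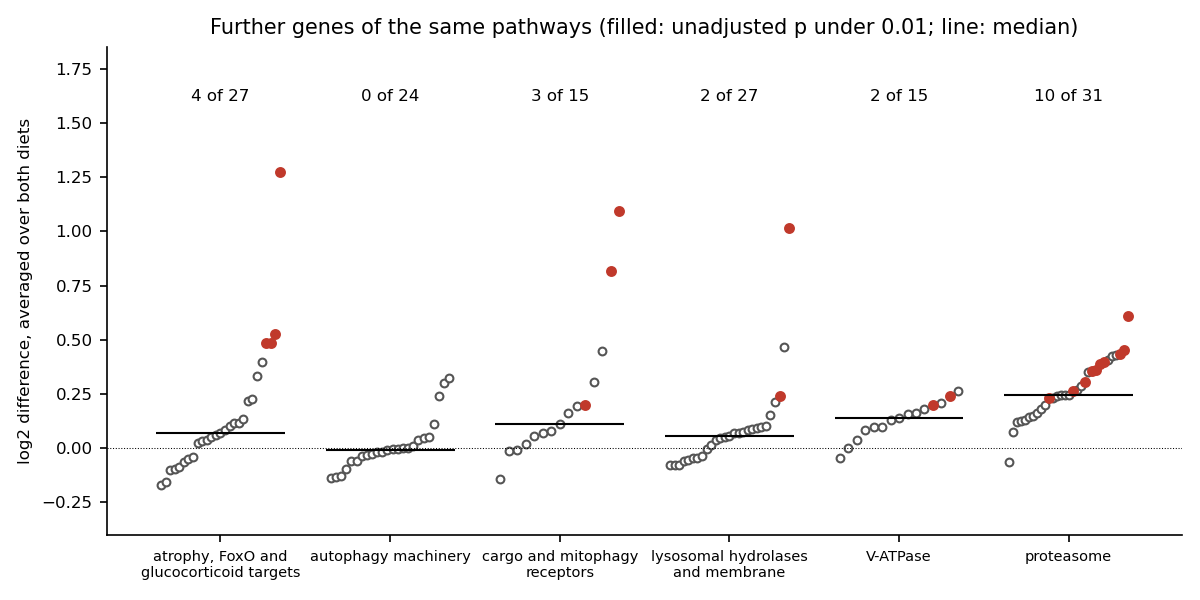
Averaged log2 difference with DOXO (vertical axis) of each gene of 6 further lists (horizontal axis), with filled red points where the unadjusted p was under 0.01, a line at the median of each list and the number called above it. The proteasome list has the most calls, 10 of 31, and the autophagy machinery none of 24.

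Markers of other cells moved in some of the same comparisons. Of 8 neutrophil markers 5 were higher in DOXO than in sham, where 3.14% of all clusters were, and 5 on average, where 2.01% were. Without the covariate these counts were 5 and 4, where 185 and 110 of all 34760 clusters were higher. In FA-DOXO against FA-sham 0 of 8 passed in limma, and 1 had an unadjusted p under 0.05. The sham group was also lower than FA-sham, which had no DOXO. All 8 differences of FA-sham against sham lay above 0, with a median of 0.46, against 0.62 for DOXO against sham. Of these 1 passed in limma, Retnlg at 0.84 ± 0.29, where 1.65% of all clusters were called higher, and 4 had an unadjusted p under 0.05. The mean log2 signal of the list was 5.53 to 6.37 in sham, 6.16 to 6.43 in FA-sham, 6.39 to 6.93 in DOXO and 6.28 to 6.70 in FA-DOXO. Of 7 macrophage markers C1qa and Cd68 were higher in DOXO than in sham and C1qa on average, with list means of 6.59 to 7.40 in sham and 6.67 to 7.48 in DOXO. Of 9 markers of fast skeletal muscle 2, Tnni2 and Atp2a1, were higher in DOXO than in sham and 0 on average, and no macrophage or skeletal muscle marker passed in limma without the covariate. None of 8 cardiomyocyte, 6 endothelial, 6 fibroblast and 5 adipocyte markers passed in either comparison, and 0 of them had an unadjusted limma p under 0.05. The mean of the cardiomyocyte list ran from 9.73 to 13.10 in sham and from 8.80 to 12.74 in DOXO. The part of these cells in the values of the 41 genes was not tested.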

How the data were processed

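Left ventricular RNA of 20 mice was hybridized to Affymetrix Mouse Gene 1.0 ST arrays, 1 per mouse. The values are the log2 signals per transcript cluster that the authors deposited, made with R 2.14.2 and Bioconductor per the labels. How background, scaling and probe summary were handled is not given in the sources used here, and differences between arrays left by those steps enter every comparison. Here, 1 mean per group and the array SD were fitted to all 34760 clusters with limma 3.58.1 in R 4.3.3, without filter or trend, with two-sided moderated tests, an unadjusted threshold of 0.01 as in the study's methods, and Benjamini-Hochberg adjustment at 0.05. The array SD as a covariate follows from earlier results of these data. The members and lists were also chosen with earlier results of these data known, so no count is independent support for a direction. Groups came from the sample labels. Replicates are separate mice, and their number limits the precision. Genes described in full passed an unadjusted 0.01 in any of the 6 comparisons, and at most 3 genes were named per further list, by smallest p, except where a list gave a single gene in a direction. Markers named in the last paragraph of results, and Gabarap, Lamp2 and Fbxo32, fall outside that rule. The fit was tested on simulated data. Exact permutation tests used SciPy 1.17.1 and figures matplotlib 3.10.9. No protein sequences were used here. Alternatives were no covariate, a block of wide against narrow arrays, either kind alone, quantile normalization, median centring, a filter on low signals, a trended and robust fit, array weights, the replicate number as a block, the mean of a gene's clusters, only the groups compared, each mouse left out and, chosen after seeing the data, the first principal component or the square of the array SD as covariates, and pairs of arrays of like SD.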

Additional observations from a re-analysis of the deposited data

Results flagged for a closer look

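In 5 of the 36 groups of mice examined for the 9 genes described in full, 1 mouse stood far from the rest of its group, and all 5 values came from FA-sham replicate 4. Its log2 signals were 9.48 for Sqstm1, 8.52 for Gabarapl1, 8.58 for Pink1, 8.17 for Trim63 and 10.27 for Ctsd, where the nearest of the other FA-sham mice were at 7.17, 6.75, 6.58, 6.64 and 6.91. Chance marks about 1 in 20 groups in this way, and the 5 values share 1 array. That array was the only wide one of FA-sham, with an array SD of 1.14. Without this mouse the averaged log2 difference of the 8 genes that rose with DOXO was 0.44 to 1.05, and all 8 passed an unadjusted limma p of 0.01. The part of the array spread in these 5 values was not tested.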

How the results depend on the processing

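All 8 genes called on average kept an averaged log2 difference above 0 under the 13 other settings run and with each of the 20 mice left out, but not all of their calls were kept. Of these 8, 0 passed without the covariate, where 0.316% of all clusters were called higher, against 2.01% in the main fit. After quantile normalization 0 passed (0.354% of all clusters), and 5 with a block of wide against narrow arrays (1.36%). Their log2 differences were 0.94 to 1.73 on the wide arrays alone and 0.43 to 0.97 on the narrow arrays alone. All 8 passed under median centring (1.68% of all clusters), the filter on low signals (2.35%) and the trended and robust fit (1.94%). They also passed with array weights (2.97%), the mean of a gene's clusters (2.01%) and the array SD with its square (2.75%). The filter, the trended fit and the mean of clusters left the 8 differences at 0.41 to 0.98. Of the 8, only Map1lc3b had a second cluster, so the mean of clusters could change little. With the first principal component 7 passed (1.79% of clusters). This component held 77.5% of the variance and had an absolute r of 0.996 with the array SD. Without the covariate the log2 difference of DOXO against sham turned to −0.13 for Gabarapl1, −0.37 for Pink1, −0.223 for Trim63 and −0.0945 for Map1lc3a, and after quantile normalization to −0.21 for Pink1 and −0.0622 for Trim63. Pink1 in FA-sham against sham turned to −1.65 without the covariate, −0.15 with the block of both kinds, −0.84 on the wide arrays alone and −1.25 after quantile normalization. The cause was not tested.

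On the narrow arrays alone sham has 1 mouse, and on the wide arrays alone FA-sham has 1, and a lone mouse was assumed to vary like the other groups, so counts there say little about stability. The share of all clusters called higher on average also moved with the setting, from 0.316% without the covariate to 2.97% with array weights. The number of genes past an unadjusted 0.01 in DOXO against sham, 7, was 0 without the covariate, 1 with the block of both kinds, 4 on the wide arrays alone, 0 on the narrow arrays alone, 0 after quantile normalization and 4 with only the groups compared. In FA-DOXO against FA-sham, 2 became 0 without the covariate, 1 with the block, 0 on the wide and 0 on the narrow arrays alone, 1 after quantile normalization, 0 with the filter, 0 with the trended fit, 0 with the first principal component, 4 with the squared term and 1 with only the groups compared. On average over diets, 8 became 0 without the covariate, 4 on the wide arrays alone, 0 on the narrow arrays alone and 0 after quantile normalization. In FA-DOXO against DOXO, 1 became 0 without the covariate, with the block, on the wide or the narrow arrays alone and after quantile normalization. In FA-sham against sham, 1 became 0 on the wide or the narrow arrays alone, with array weights and with only the groups compared, 2 with the replicate block and 5 with the squared term. The interaction count of 0 became 1 with the first principal component. The count past an adjusted 0.05 on average, 1, became 0 without the covariate, with the block, on the wide or the narrow arrays alone, after quantile normalization, with the replicate block and with the first principal component, and 6 with the squared term.

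With each mouse left out in turn, the counts ran from 4 to 8 in DOXO against sham, 0 to 5 in FA-DOXO against FA-sham, 6 to 10 on average, 1 to 1 in FA-DOXO against DOXO, 0 to 4 in FA-sham against sham, 0 to 1 for the interaction and 0 to 3 past the adjusted threshold. The 4 in DOXO against sham came without sham replicate 2. FA-DOXO against FA-sham gave 0 without sham replicate 3, FA-sham replicate 1 or 3, DOXO replicate 5, or FA-DOXO replicate 1, 4, 5 or 6. It gave 1 without sham replicate 1 or 4, FA-sham replicate 2, or DOXO replicate 1, 2, 4 or 6, and 5 without FA-sham replicate 4. FA-sham against sham gave 0 without FA-sham replicate 1 or 3 and 4 without sham replicate 4 or FA-sham replicate 2, and the interaction gave 1 without DOXO replicate 1. The adjusted count was 0 without sham replicate 2 or 3, FA-sham replicate 1, 2 or 3, or FA-DOXO replicate 5, 2 without DOXO replicate 1 or FA-DOXO replicate 2, and 3 without sham replicate 4. Same-numbered mice had residual correlations of −0.45 to 0.62, with 14 of 26 above 0.1. These values do not settle whether the numbers mark a pairing or a batch, and the main fit used neither. With the replicate block 7 genes passed on average and 7 in DOXO against sham, and 3 in FA-DOXO against FA-sham. In exact two-sided permutation tests on the signals as deposited, without the covariate, the 9 genes gave p of 0.533 to 0.933 in DOXO against sham and 0.152 to 0.352 in FA-DOXO against FA-sham.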
